A study of Mus musculus with 10 samples.

Results

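Aminoacyl-tRNA synthetases, the enzymes that attach each amino acid to its transfer RNA, were examined in mouse long-term hematopoietic stem cells that carry or lack the surface receptor neogenin-1 (NEO1). The members were listed by gene symbol, and all 36 listed symbols were found among the 24544 genes of the deposited count table. Of these, 20 encode cytosolic enzymes and 16 encode mitochondrial enzymes, which bear the suffix 2. All 36 passed the filter on low counts and were tested with the 12203 genes that passed.

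Protein synthesis in an animal cell runs in 2 compartments, each with its own ribosomes and transfer RNAs. The cytosolic enzymes charge the transfer RNAs used to translate nuclear messages, and 8 of them join a large multi-synthetase complex. The mitochondrial enzymes are made in the cytosol from nuclear genes and imported, and they charge the transfer RNAs used to make the respiratory chain subunits that the mitochondrial genome encodes. Gars and Kars, the glycine and lysine enzymes, serve both compartments from a single gene. Quiescent blood stem cells are known for a low rate of protein synthesis.

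The cells came from bone marrow of Hoxb5-mCherry mice aged 2 to 3 months, whose reporter marks Hoxb5 expression. Both groups were sorted as positive for KIT, SCA1, CD150 and Hoxb5 and negative for lineage markers, CD34, CD48 and FLK2, and they differed in being NEO1+ or NEO1-. There were 5 libraries a group, and each held RNA of 250 to 500 cells pooled from 2 mice, copied by Smart-seq2 with oligo-dT priming and 18 cycles of PCR. The labels do not say that the libraries of a group came from separate pools of mice, so p-values measure the spread between these libraries, which may in part be technical.

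Library totals ran from 21.2 to 38.9 M counts, and 12800 to 13808 genes were detected in a NEO1+ library against 11477 to 13147 in a NEO1- library. Neo1 itself averaged 47.5 ± 20.5 CPM (counts per M counts of the TMM-scaled library size; SD, n = 5) in NEO1+ and 10.7 ± 5.66 in NEO1- libraries. NEO1+ library 4 was the exception, at 12.5 CPM, within the NEO1- range of 4.56 to 18.9, and the medians, the fold changes of the named synthetases and the Lars2 to Rn45s ratio are also given without it. The 10 markers of long-term stem cells summed to 2278 to 2633 CPM in NEO1+ libraries, against 2312 to 2720 CPM in NEO1-. Among these, Hoxb5, a gene of the gate, was at 2.45 to 4.91 CPM against 0 to 2.43 CPM, and the 0 was in NEO1- library 3. Of 10 markers of dividing cells, 8 had an unadjusted p under 0.05, all with the higher mean in NEO1+, beside 3.11% of all genes tested. The 10 summed to 599 to 821 CPM against 298 to 456 CPM. Summed markers of other lineages overlapped between the groups for erythroid (1486 to 2141 against 1406 to 1724 CPM), neutrophil and monocyte (492 to 3577 against 380 to 3088), lymphoid (40.9 to 58.6 against 32.4 to 85.6) and endothelial or stromal genes (35.9 to 91.2 against 2.68 to 51.5). The megakaryocyte sum did not overlap, at 186 to 219 against 110 to 181 CPM, and its 6 genes were split in direction. Of these, 3 had a log2 fold change (NEO1+ over NEO1-) above 0 and 3 below, and 0 had non-overlapping groups of their own. At an unadjusted p under 0.05 there were 2 of the 6, both with the higher mean in NEO1+, and 0 with the lower. The defining markers Cd3e, Rag1 and Dntt of lymphocytes, Cdh5 of endothelium and Lepr of stroma were at 0 in all 10 libraries. Other members of those lists were detected, with Cd79b, a B cell receptor subunit, at 37.2 ± 7.37 against 35.9 ± 14.4 CPM and Pecam1, an endothelial adhesion molecule that some blood cells share, at 36.3 ± 7.58 against 19.4 ± 19.6 CPM. The part of these marker levels in the results that follow was not tested. In bulk libraries of this kind, fewer cells of a type and less RNA per cell cannot be told apart.

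The synthetases as a group were measured at nearly the same level in both populations. Groups did not overlap for a single member, Lars2, or 2.78% of the members, near the 2.48% of all genes tested. Summed over the 20 cytosolic members, expression was 1847 ± 101 CPM in NEO1+ libraries, against 1843 ± 126 CPM in NEO1- (SD, n = 5). The 15 mitochondrial members other than Lars2 summed to 396 ± 35.5 CPM in NEO1+, against 402 ± 63.5 CPM in NEO1-. With Lars2, the leucine enzyme of mitochondria, the mitochondrial sum was 1301 ± 137 against 2151 ± 358 CPM. The difference in the mitochondrial total therefore came almost whole from Lars2.

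**Figure D1:**
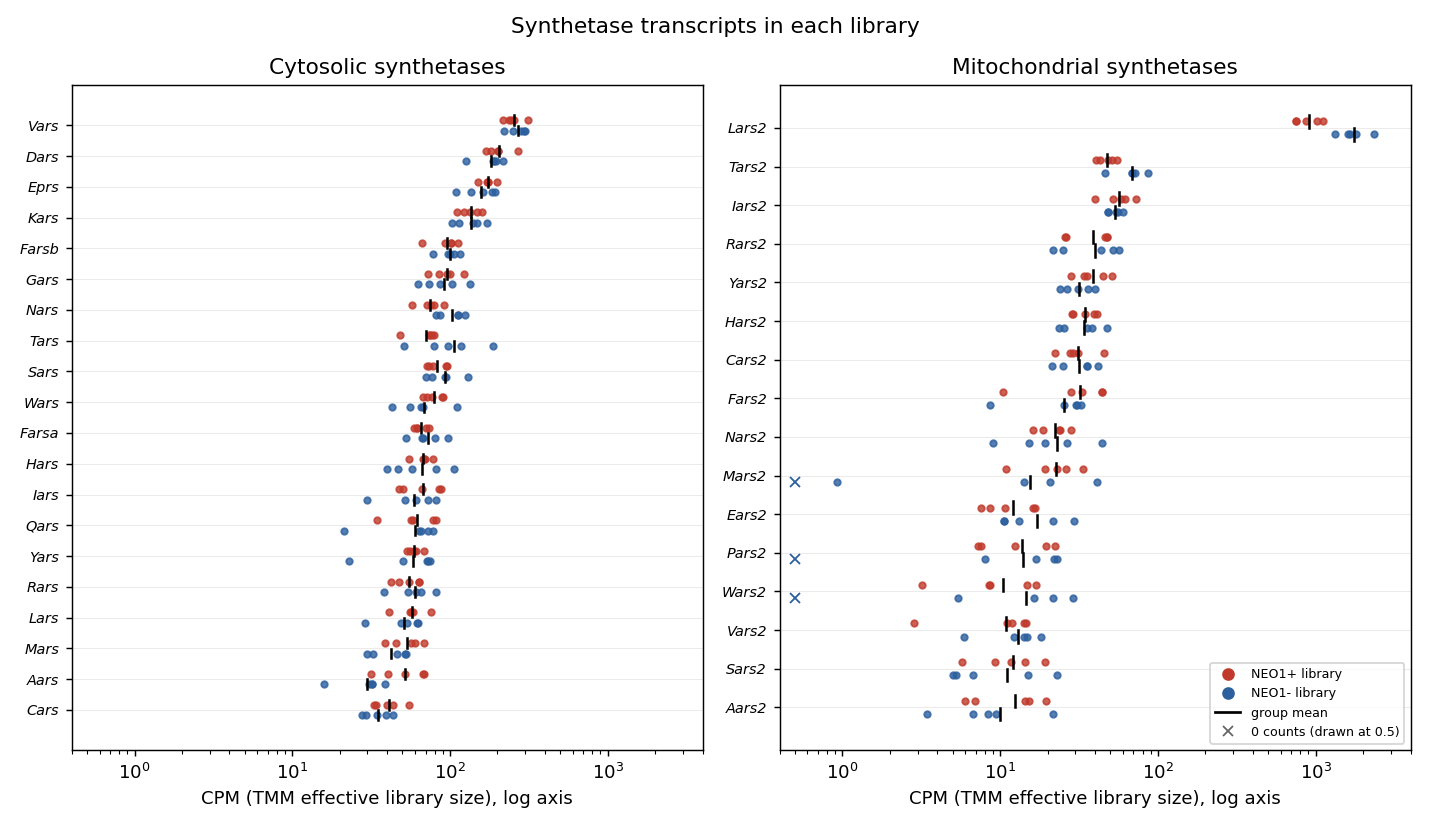
Level of each cytosolic (left) and mitochondrial (right) synthetase in the 10 libraries, in CPM on a log axis, with red points for NEO1+, blue points for NEO1- and a black tick for each group mean; crosses mark libraries with 0 counts. Lars2 lies at 750 to 1119 CPM in NEO1+, against 1332 to 2352 CPM in NEO1-, far to the right of the other mitochondrial members, and it is the member whose red and blue points do not overlap.

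In the test across all genes (edgeR's quasi-likelihood test, Benjamini-Hochberg adjusted over the 12203 genes), 0 of the 36 synthetases had an adjusted p under 0.05, as did 0% of all genes tested. At an unadjusted p under 0.05 there were 4 synthetases, Aars with the higher mean in NEO1+ and Nars, Lars2 and Tars2 with the lower. That is 11.1% of the members against 6.6% of all genes tested. In single directions, 1 of 36 against 3.11% of all genes had the higher mean in NEO1+, and 3 of 36 against 3.49% had the lower. Groups did not overlap for 1 of the 36 members, or 2.78%, against 2.48% of all genes tested, a share near the background. All genes with non-overlapping groups were split into 1.35% above in NEO1+ and 1.13% below, where Lars2 lay. With DESeq2's Wald test as the alternative, Lars2 alone among the members had an adjusted p under 0.05, against 1.07% of the 13721 genes to which that tool gave an adjusted p (0.663% with the higher mean in NEO1+ and 0.408% with the lower).

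The fold changes were small and centred near 0. The median log2 fold change (NEO1+ over NEO1-) was 0.02 over the 36 members, 0.03 over the cytosolic and -0.02 over the mitochondrial members, beside 0.01 over all genes tested. Without Lars2 the mitochondrial median was also -0.02, with 7 members above 0 and 8 below and a range from -0.52 to 0.54. For 30 of 36 members the fold change was within 0.5 of 0 on the log2 scale. Without NEO1+ library 4 the cytosolic median was 0.06 and the mitochondrial median -0.11. The fold changes then were 0.88 for Aars, -0.45 for Nars, -0.49 for Tars2, -0.64 for Tars and 0.18 for Lars, and the same 4 members had an unadjusted p under 0.05.

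**Figure D2:**
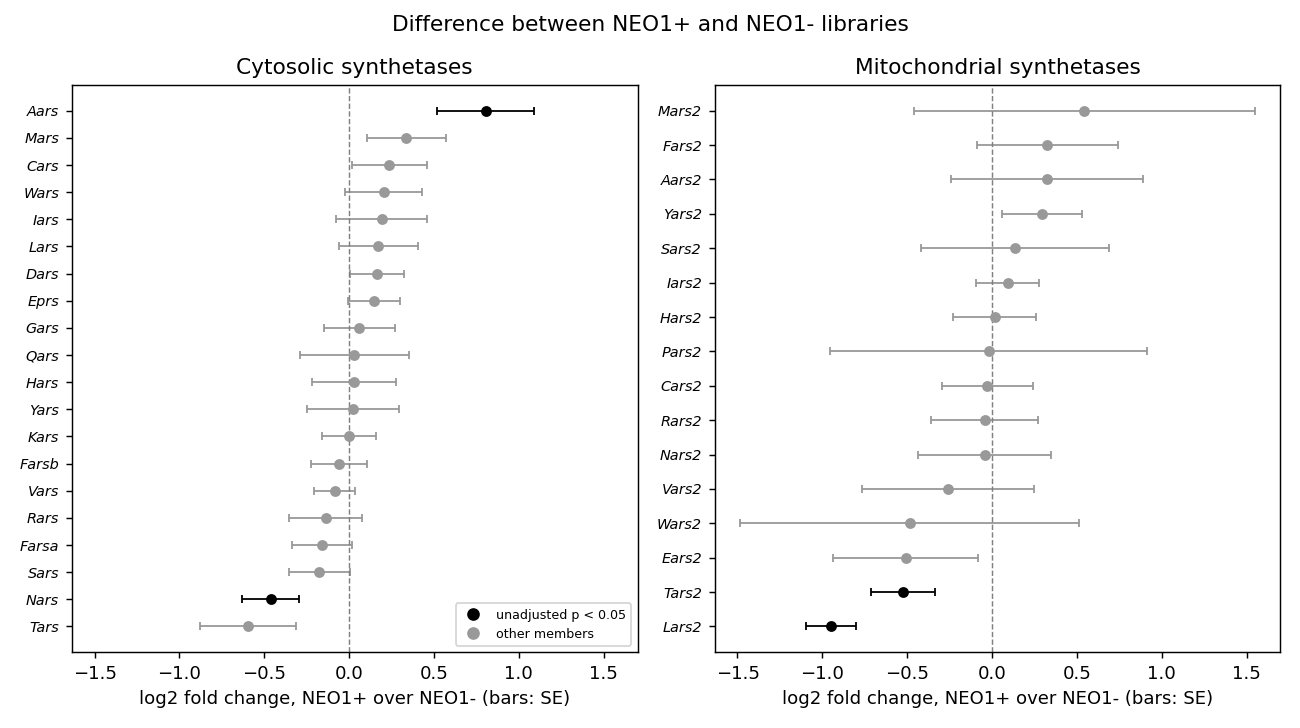
Log2 fold change of each cytosolic (left) and mitochondrial (right) synthetase between NEO1+ and NEO1- libraries, with bars of 1 standard error; black marks an unadjusted p under 0.05 in edgeR's quasi-likelihood test. Most points lie within 0.5 of the dashed line at 0, and Lars2 at -0.95 and Aars at 0.80 are the ends of the range.

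Lars2 lies on chromosome 9 at chr9:123366927-123462666, plus strand (GRCm38). Its level in NEO1+ libraries 1 to 5 was 1119, 1027, 756, 750 and 873 CPM. In NEO1- libraries 1 to 5 it was 1644, 2352, 1816, 1332 and 1600 CPM. All 5 NEO1+ values lay below all 5 NEO1- values, and NEO1- library 2 was the highest. The group means were 905 ± 164 and 1749 ± 379 CPM, a log2 fold change of -0.95 with a standard error of 0.15 (adjusted p = 0.0747, edgeR). DESeq2, run without that filter, gave -0.95 with an adjusted p of 1.32e-07, and edgeR with no filter other than 1 count gave an adjusted p of 0.0417. Without NEO1+ library 4 the fold change was -0.89 (adjusted p = 0.183, edgeR), and without NEO1- library 2 it was -0.82 (adjusted p = 0.184, edgeR). With genes detected per library as a covariate it was -0.63 (unadjusted p = 0.00366, adjusted p = 0.9998, edgeR). Aars, Nars, Tars and Tars2 had the same adjusted p under that covariate. There, 2.27% of all genes tested had an unadjusted p under 0.05, and 0 had an adjusted p under 0.05.

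Lars2 did stand apart from the other 15 mitochondrial members in level. Per kilobase of exon and averaged over the 10 libraries, it was at 341 CPM per kb, 16.2 times the next mitochondrial member, Rars2, the arginine enzyme. The other mitochondrial members ranged from 1.68 to 20.98 CPM per kb with a median of 7.09. Lars2 alone made up 69.2 ± 5.44% of the mitochondrial synthetase counts in NEO1+ and 80.8 ± 4.74% in NEO1- libraries. Of the counts of all 36 members it held 28.6 ± 3.76% in NEO1+ and 43.5 ± 6.53% in NEO1- libraries.

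In CPM, Lars2 ranked the libraries of a group much as did Rn45s, the ribosomal RNA precursor gene of the table. Both genes are divided by the same scaled library size, and the part of that in the likeness was not tested. Rn45s took 32.3 ± 3.89% of all counts in NEO1+ and 38.4 ± 5.01% in NEO1- libraries (log2 fold change -0.41, standard error 0.17, adjusted p = 0.728, edgeR). Ordered from high to low in CPM, the NEO1+ libraries ran 1, 2, 5, 3, 4 for both Lars2 and Rn45s, and the NEO1- libraries ran 2, 3, 1, 5, 4 for Lars2 and 2, 1, 3, 5, 4 for Rn45s. As a share of all counts the order of Rn45s was the same, but that of Lars2 was 1, 2, 5, 4, 3 in NEO1+ and 2, 3, 5, 1, 4 in NEO1- libraries. For genes detected, the order was 3, 4, 5, 2, 1 in NEO1+ and 4, 5, 2, 3, 1 in NEO1- libraries. Lars2 and Rn45s were thus lowest in libraries 3 and 4 of NEO1+ and in library 4 of NEO1-, which had the most genes detected in their groups.

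The ratio of Lars2 to Rn45s counts was also taken in each library. The part of Rn45s in the Lars2 difference was not tested. Lars2 had 2.92, 3.11, 2.85, 3.01 and 2.77 counts per 1000 Rn45s counts in NEO1+ libraries 1 to 5, and 3.46, 4.83, 4.16, 4.61 and 4.43 in NEO1- libraries 1 to 5. The NEO1+ values were close together and all lay below the NEO1- values. The means were 2.93 ± 0.134 and 4.30 ± 0.530 (SD, n = 5; exact two-sided permutation test over all assignments of the libraries, p = 0.00794, the smallest that 5 against 5 can give). Without NEO1+ library 4 the difference of the means was -1.39 (exact permutation p = 0.0159). Lars2 was singled out from earlier results of these data, so these p-values are not independent support for a difference.

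**Figure D3:**
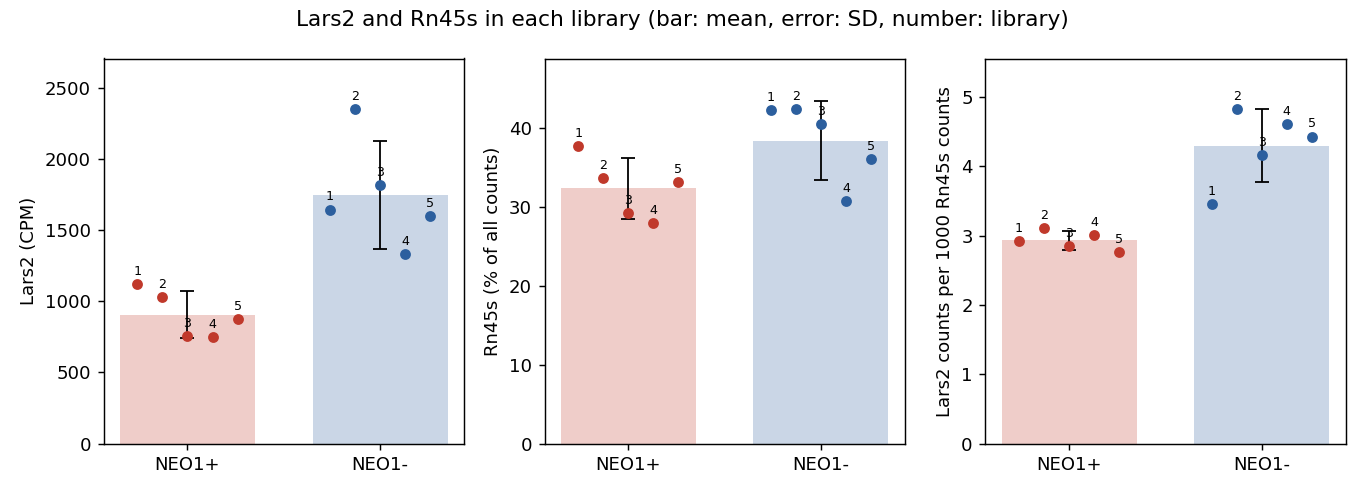
Lars2 in CPM (left), Rn45s as a percent of all counts (middle) and Lars2 counts per 1000 Rn45s counts (right) in each library; bars are group means, error bars the SD of 5 libraries, and the numbers name the libraries. The groups overlap for Rn45s, while Lars2 and the ratio do not overlap, with the ratio at 2.77 to 3.11 in NEO1+ and 3.46 to 4.83 in NEO1- libraries.

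The 3′ untranslated region of Lars2, 989 bases long, shares sequence with other annotated transcripts. In GENCODE M21, bases 3233 to 3329 of the 3894-base Lars2 transcript matched AA474408 at 94.8% identity, and bases 3278 to 3349 matched the antisense transcript Gm15564 at 98.6%. Together these matches covered 117 bases, 3.00% of the transcript. Neither transcript has a row of its own in the count table, so their levels are not given here. The Rn45s sequence was not analysed here, and the part of shared sequence in the Lars2 counts was not tested.

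Tars2, the threonine enzyme of mitochondria, was the other mitochondrial member with an unadjusted p under 0.05. It lies at chr3:95739976-95760206, minus strand (GRCm38). Its NEO1+ libraries 1 to 5 were at 40.7, 48.2, 54.8, 42.8 and 50.8 CPM, and its NEO1- libraries at 68.4, 71.7, 46.4, 68.1 and 87.0 CPM. NEO1- library 3 lay inside the NEO1+ range and the other 4 above it. The means were 47.5 ± 5.77 and 68.3 ± 14.5 CPM (log2 fold change -0.52, standard error 0.19, adjusted p = 0.594, edgeR). The difference thus did not pass the test across all genes.

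For the other 14 mitochondrial members the groups overlapped and no unadjusted p was under 0.05. Iars2, the isoleucine enzyme, was among the most evenly measured, at 57.0 ± 12.3 CPM in NEO1+ against 53.5 ± 5.21 CPM in NEO1-. Rars2 was at 38.6 ± 11.7 and 39.8 ± 15.8 CPM, and Hars2, the histidine enzyme, at 34.5 ± 5.76 and 34.1 ± 9.75 CPM. The ends of the range, Mars2 at 0.54 and Ears2 at -0.51 on the log2 scale, had standard errors of 1.004 and 0.43. These are the methionine and glutamate enzymes, and their differences were not larger than the spread between libraries.

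Several mitochondrial members were near the limit of detection in single libraries. Mars2 had 0 counts in NEO1- library 2 and 0.926 CPM in NEO1- library 5, but 41.2 CPM in NEO1- library 1. Pars2, the proline enzyme, had 0 counts in NEO1- library 3 and Wars2, the tryptophan enzyme, had 0 counts in NEO1- library 1. A count of 0 allows up to 0.140, 0.102 and 0.0955 CPM in those 3 libraries, counting error alone. The same genes reached 23.0 CPM (Pars2) and 29.0 CPM (Wars2) in other NEO1- libraries, so a library without counts stood beside libraries with many. All 3 zeros fell in the group with fewer genes detected; the part of that in their values was not tested.

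The spread between libraries was wider in NEO1- for most members, as it was for most genes tested. The SD of log2 CPM was larger in NEO1- than in NEO1+ libraries for 29 of 36 members, or 80.6%, beside 78.3% of all genes tested. In NEO1+ the SD ran from 0.14 for Eprs, the fused glutamate and proline enzyme, to 0.98 for Vars2, the mitochondrial valine enzyme. In NEO1- it ran from 0.14 for Iars2 to 3.88 for Mars2. Lars2 had SDs of 0.26 and 0.30, so its groups were about equally tight.

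Cytosolic enzymes were measured above their mitochondrial partners for most amino acids. Over the 10 libraries, the cytosolic members had a median of 26.5 CPM per kb of exon, with a range from 7.11 for Aars to 78.7 for Dars, the aspartate enzyme. Of 16 partner pairs, the cytosolic gene had the higher level per kb in 14. The ratio reached 23.4 for Vars over Vars2. The exceptions were Cars2, the mitochondrial cysteine enzyme, at 1.402 times Cars, and Lars2 at 24.9 times Lars.

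**Figure D4:**
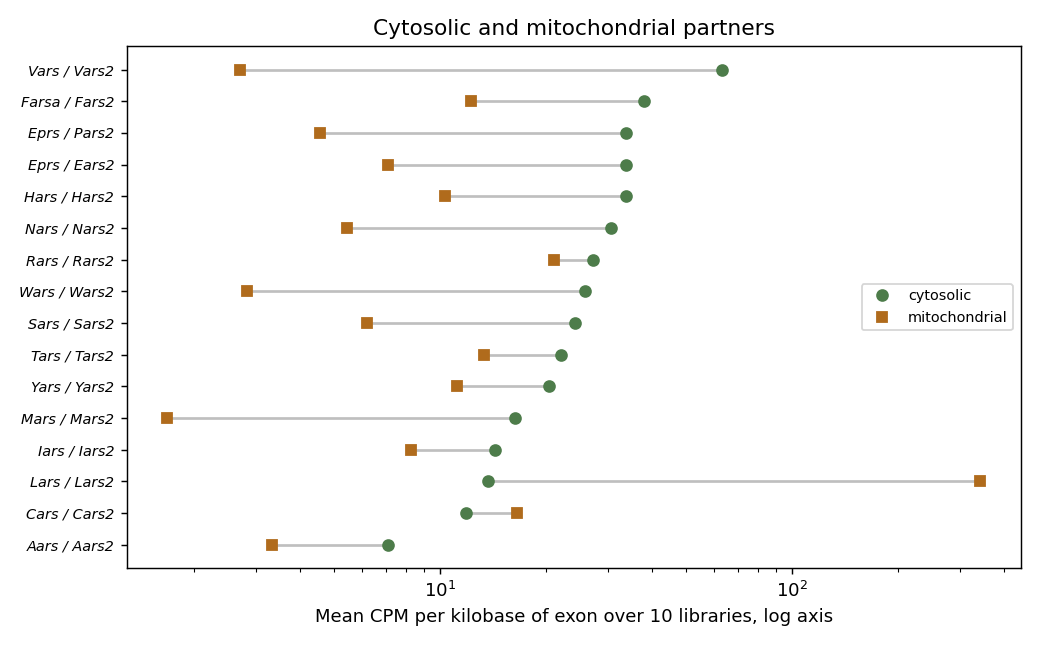
Mean level per kilobase of exon over the 10 libraries, on a log axis, for each cytosolic synthetase (green circle) joined to its mitochondrial partner (brown square). The circle lies to the right in 14 of 16 pairs, and the Lars and Lars2 pair is reversed with Lars2 at 341 CPM per kb.

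Lars, the cytosolic leucine enzyme, had overlapping groups. It was at 55.6, 75.9, 41.1, 57.0 and 58.7 CPM in NEO1+ libraries 1 to 5, against 61.6, 48.9, 29.0, 62.8 and 53.4 CPM in NEO1- libraries. Library 3 was the lowest of each group. Its log2 fold change was 0.17 with a standard error of 0.23 (adjusted p = 0.994, edgeR). Counts of Lars2 per count of Lars averaged 16.02 ± 3.09 in NEO1+ and 37.7 ± 17.2 in NEO1- libraries.

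Among the cytosolic members, Aars, the alanine enzyme, had the widest fold change. It lies at chr8:111033144-111057664, plus strand (GRCm38). The NEO1+ libraries 1 to 5 were at 68.6, 51.5, 67.7, 40.5 and 31.7 CPM, and the NEO1- libraries at 15.8, 38.7, 30.8, 31.8 and 31.9 CPM. NEO1+ libraries 1 to 4 lay above all NEO1- libraries, and NEO1+ library 5 lay among them. The means were 52.0 ± 16.3 and 29.8 ± 8.43 CPM (log2 fold change 0.80, standard error 0.28, adjusted p = 0.586, edgeR). With genes detected as a covariate the fold change was 0.52, and the unadjusted p was no longer under 0.05. Aars shares 1326 exonic bases, 23.1% of its exonic length, with Exosc6, an exosome subunit on the same strand, whose own log2 fold change was 0.28 (adjusted p = 0.954, edgeR).

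Nars, the asparagine enzyme, was at 79.4, 75.5, 91.5, 71.7 and 57.1 CPM in NEO1+ libraries 1 to 5. In NEO1- libraries it was at 86.6, 81.2, 112, 124.7 and 112.5 CPM. NEO1+ library 3 lay above the lowest NEO1- libraries, 1 and 2, and the other NEO1+ libraries lay below all NEO1- libraries. The means were 75.0 ± 12.5 and 103 ± 18.6 CPM (log2 fold change -0.46, standard error 0.17, adjusted p = 0.604, edgeR). With genes detected as a covariate the fold change was -0.72. Without NEO1- library 4 the unadjusted p was no longer under 0.05.

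Tars, the cytosolic threonine enzyme, was the member with an unadjusted p between 0.05 and 0.10. Its log2 fold change was -0.59 with a standard error of 0.28 (adjusted p = 0.766, edgeR). NEO1- library 1 was the highest, at 186.8 CPM, and NEO1- library 2, at 50.9 CPM, lay within the NEO1+ range of 48.3 to 79.1 CPM. Without NEO1- library 1 the fold change was -0.29. With genes detected as a covariate the fold change was -0.15. The threonine enzymes of both compartments had the lower mean in NEO1+, but neither passed the test across all genes.

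The remaining 17 cytosolic members had overlapping groups and unadjusted p above 0.10. The enzymes that serve both compartments had group means within the spread of either group. Gars was at 95.6 ± 19.0 and 91.8 ± 27.6 CPM, and Kars at 135.6 ± 19.7 and 135.6 ± 27.6 CPM. Vars, the valine enzyme, was at 254 ± 35.7 and 269 ± 33.0 CPM, and Dars at 205 ± 38.4 and 183 ± 33.8 CPM. The largest fold change of these 17 was that of Mars, the methionine enzyme, at 0.34 with a standard error of 0.23.

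Members were also compared by membership of the multi-synthetase complex and by structural class, and the medians lay close to 0 in each division. The 8 enzymes of the complex (Eprs, Iars, Lars, Mars, Qars, Rars, Kars and Dars) had a median log2 fold change of 0.16, with 7 above 0, and none had an unadjusted p under 0.05. The 12 cytosolic enzymes outside it had a median of -0.02, with 6 above 0. Synthetases fall into 2 unrelated structural classes. The median was 0.03 over 18 class I enzymes and 0.00 over 17 class II enzymes, and Eprs, which joins both classes in 1 chain, was at 0.15. The complex scaffolds Aimp1, Aimp2 and Eef1e1 ranged from 0.06 to 0.23, with 0 of 3 at an unadjusted p under 0.05.

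Some cytosolic synthetase genes are known targets of ATF4, the transcription factor of the amino acid starvation response, through composite elements in their promoters. RefSeq promoter windows (GRCm38.p6, 250 bases before to 50 after the start) were at hand for 27 members. The letters TGATGNAAN were searched on both strands. They were found in windows of 5 of 13 cytosolic genes (38.5%) and 0 of 14 mitochondrial genes, and in 3.95% of all 32851 windows. A member counted once if any of its windows matched, whereas the last share counts every window, so these are unlike measures. The difference between the compartments was not tested. A core motif of NRF1, a regulator of nuclear genes for mitochondria, was searched after values were seen. Counted in the same way, it occurred in windows of 3 of 13 cytosolic genes and 2 of 14 mitochondrial genes, and in 4.60% of all windows. A match of each of the 5 genes is shown 5′ to 3′ on the gene's strand with 10 bases on either side, since these letters mark the cytosolic genes that carry a known motif of this response; capitals mark the match, which may be on the reverse strand. A match is a description of letters and not a bound site.
Yars (chr4:129189896-129189924): cgagctcagcTGATGCAACccgacgggac
Gars (chr6:55037960-55037988): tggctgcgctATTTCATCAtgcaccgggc
Aars (chr8:111033840-111033868): agcgggtcacTTTTCATCAgagcgctctg
Iars (chr13:49682126-49682154): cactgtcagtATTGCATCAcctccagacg
Tars (chr15:11399656-11399684, minus strand): caggagtcccGTTGCATCAgctggttagc

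The carriers of these letters did not share a direction. Their log2 fold changes were 0.80 for Aars, 0.19 for Iars, 0.06 for Gars, 0.02 for Yars, the tyrosine enzyme, and -0.59 for Tars, and none had an adjusted p under 0.05. Of 20 listed genes of the amino acid response, 19 were tested, 0 had an unadjusted p under 0.05 and the median was -0.08. Atf4 itself was at 96.9 ± 27.5 CPM in NEO1+ against 113 ± 33.6 CPM in NEO1- (log2 fold change -0.23, adjusted p = 0.966, edgeR).

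The wider machinery of charging and mitochondrial translation gave few differences at an unadjusted p under 0.05. The 6 editing and deacylation genes had 0, as did 4 genes of the selenocysteine pathway. The inorganic pyrophosphatases remove the pyrophosphate that charging releases. Among them, the mitochondrial Ppa2 had non-overlapping groups, lower in NEO1+, as did 1.13% of all genes tested. It was at 29.8, 38.1, 44.8, 30.8 and 40.0 CPM in NEO1+ libraries 1 to 5, against 53.1, 64.7, 46.6, 44.9 and 56.9 CPM in NEO1- libraries. The highest NEO1+ library and the lowest NEO1- library nearly touched, and the log2 fold change was -0.54 with a standard error of 0.19 (adjusted p = 0.596, edgeR). Ppa1, the cytosolic form, was at -0.01 on the log2 scale.

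Of 14 mitochondrial translation and genome factors, 1 had an unadjusted p under 0.05. This was Gfm1, a mitochondrial elongation factor, at 20.5 ± 6.34 CPM in NEO1+ against 11.3 ± 4.13 CPM in NEO1- (log2 fold change 0.85, standard error 0.37, adjusted p = 0.721, edgeR). NEO1+ library 4, at 11.9 CPM, and NEO1- library 4, at 18.3 CPM, lay in the range of the opposite group. The median over the 14 was 0.11. Tufm, the elongation factor that delivers charged transfer RNAs to the mitochondrial ribosome, was at 54.5 ± 3.84 and 61.1 ± 18.0 CPM (adjusted p = 0.988, edgeR). None of these lists had a gene with an adjusted p under 0.05.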

How the data were processed

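The deposited data were raw counts for each gene symbol in each library, and log2 values the authors made from them. Each deposited log2 value equalled log2 of the count over a size factor plus 1, per the file headers and values. Per the submitters' processing notes, bcl2fastq 2.18, STAR 2.4 and DESeq2 1.22.2 were used with build mm10; the counting tool, the annotation and strand use are not given in the sources used here. Genes that overlap on opposite strands, such as Hars with Hars2, Cars2 with Naxd and Iars2 with Rab3gap2, may therefore share reads, and Iars shares 49.9% of its transcript with the processed pseudogene Gm4849. No molecular identifiers were used, so floors cover counting error only.

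All 10 libraries were fitted in R 4.3.3 by the robust quasi-likelihood test of edgeR 4.0.16 with TMM scaling and filterByExpr (common biological coefficient of variation 0.717), and p-values were adjusted over all genes tested. DESeq2 1.42.0, limma 3.58.1 on the deposited log2 values, other scalings and filters, a replicate block, a covariate and the omission of single libraries were alternatives. The lowest chi-square per degree of freedom between libraries of a group was 86.7, so no pair agreed within counting noise. Gene positions and exonic lengths came from GENCODE M21 (GRCm38), and shared sequence from BLAST+ 2.17.0 (at least 90% identity over 70 bases).

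Values per library are given for Lars2, Lars, members with an unadjusted p under 0.05 and members whose groups did not overlap. Gars and Kars are given by means, and listed pathway genes when their unadjusted p was under 0.05. Further genes are named with their values in view. The members and lists were chosen with earlier results of these data known.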

Additional observations from a re-analysis of the deposited data

Results flagged for a closer look

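In 8 of 72 groups of 5 libraries (36 members in each of 2 groups), 1 library stood apart from the other 4 by more than Dixon's 95% critical value of 0.71. Normally distributed values would give about 3.6. The same share over all genes tested is not given here, so the 8 cannot be called an excess particular to the synthetases. Values are log2 CPM. In NEO1- library 1, Aars was at 3.99 with the nearest library at 4.95, Qars, the glutamine enzyme, was at 4.41 with the highest at 6.30, and Wars2, with 0 counts, was at -3.98. In NEO1- library 3, Dars was at 6.98 with the nearest at 7.54, Fars2, the mitochondrial phenylalanine enzyme, was at 3.11 with the nearest at 4.67, and Pars2, with 0 counts, was at -3.98. In NEO1+ libraries, Tars was at 5.59 in library 5 with the nearest at 6.20, and Vars2 was at 1.53 in library 1 with the nearest at 3.48. All 8 were low values, and 6 fell in NEO1- libraries 1 and 3, which had the fewest genes detected, at 11477 and 11593. The part of detection in these values was not tested.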

How the results depend on the processing

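Lars2 kept its direction under all 20 alternatives. It had an adjusted p under 0.05 under 3 of them: with no filter other than 1 count (log2 fold change -0.95, adjusted p = 0.0417, edgeR), with DESeq2's Wald test (-0.95) and with DESeq2 and the replicate block (-0.95, adjusted p = 7.32e-22). Under each of these 3, the number of synthetases with an adjusted p under 0.05 was 1 (2.78% of the members) rather than 0, beside 0.0128%, 1.07% and 5.43% of all genes with an adjusted p. Leaving out 1 library at a time gave fold changes of -1.04 to -0.82 and adjusted p of 0.0954 to 0.288, with 0 synthetases called. The number with an unadjusted p under 0.05 was 3 to 5 under all alternatives, while the share of all genes ran from 2.27% with genes detected as a covariate (3 members) to 14.4% under DESeq2 with the replicate block (5 members). The number whose groups did not overlap, counted after seeing the data, as was the mitochondrial median without Lars2, was 1 to 2 when a library was left out. The additional member was Nars without NEO1+ library 3, Aars without NEO1+ library 5, Wars without NEO1- library 1, Tars without NEO1- library 2 and Tars2 without NEO1- library 3. With a library left out, groups separate more easily for any gene, and the share over all genes is not given here. The median of all genes shifted by 0.10 under limma on the deposited log2 values and by 0.12 under DESeq2 with the replicate block, and medians of both compartments changed sign under some alternatives. The mitochondrial median ran from -0.15 without NEO1- library 3 to 0.09 under limma, and was -0.13 with genes detected as a covariate and 0.06 with the replicate block in edgeR. The cytosolic median ran from -0.01 without NEO1+ library 5 to 0.10 under limma. The Lars2 to Rn45s ratio differed by -1.58 to -1.23 counts per 1000 when a library was left out (exact permutation p 0.00794 to 0.0159).

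The groups share the numbers 1 to 5, but same-numbered libraries did not deviate together (correlations 0.00 to 0.04 across the genes tested), and not every library correlated best with its own number. With the replicate block, edgeR gave Lars2 -0.94 (adjusted p = 0.0876), 0 synthetases with an adjusted p under 0.05 and 4 with an unadjusted p under 0.05. Depth did not limit Lars2, with at least 23309 counts in a library, whereas Mars2, Pars2 and Wars2 each had a library with 0 counts.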
